A study of Mus musculus with 4 samples.

Results

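The genes of chromatin remodelling complexes were followed in LSK cells, the lineage-negative, Sca1-positive, Kit-positive bone marrow fraction that holds hematopoietic stem cells and early progenitors, from mice aged 13 to 15 months. Messenger RNA was sequenced from p53R248W/+ mice, heterozygous for a missense allele of Trp53 that alters the part of p53 that contacts DNA, and from WT mice, with 2 libraries per genotype. The labels name no inducer, transplant or treatment, and they leave unstated whether the libraries were made from different mice. The p-values therefore describe library-to-library spread, part of which may be technical. Members were all rows of the gene count table whose symbol begins with Smarc, Arid1 to Arid5, Ino80 or Baz, or is 1 of the numbered Chd, Mta and Brd genes, Pbrm1 or Bptf. There were 55 such rows of 24421, and 53 of them were among the 13296 genes that passed the filter on low counts and were tested. The 2 left out were Arid3c, with 0 counts in every library, and the pseudogene row Smarca5-ps, with at most 22 counts in a library.

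Chromatin remodellers use ATP to slide, eject or exchange nucleosomes. SWI/SNF complexes (BAF and PBAF) open promoters and enhancers, ISWI complexes space nucleosomes, NuRD joins a CHD-type remodeller to histone deacetylases, and INO80 acts at promoters and replication forks. In blood stem cells several of these subunits are known to affect self-renewal and lineage choice, and SWI/SNF genes are often mutated in cancers. Not every member is a remodelling subunit: Brd2 and Brd3 are BET proteins that read acetylated histones, Brd1 is a scaffold of histone acetyltransferase complexes, Arid4a and Arid4b belong to Sin3 deacetylase complexes, and Arid3a, Arid3b, Arid5a and Arid5b bind DNA or RNA outside these machines. Ino80dos is an RNA gene transcribed from the opposite strand to Ino80d.

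No remodelling gene passed the test between genotypes. The ATPases Smarca4, Smarca2, Smarca5, Chd4 and Ino80 had log2 fold changes from -0.14 to 0.12. At an adjusted p of 0.05 in edgeR's quasi-likelihood test, 0 of 53 members were called, where 0% of all tested genes were called. DESeq2 and limma-voom also called 0 members, against 0.046% and 0% of the genes they tested. The adjusted p of the members ran from 0.824 to 0.999. At an unadjusted p under 0.05 there were 2 members, Brd9 and Chd6, both higher in p53R248W/+ cells, and 0 lower, where 3.01% of all tested genes were higher and 2.86% lower at that level. In all, 3.77% of the members reached it, beside 5.87% of all tested genes. With no filter on low counts the shares were 5.56% of the members and 4.87% of all genes, so no difference is read from them.

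The genes with the lowest unadjusted p were 2 SWI/SNF subunits and a CHD remodeller, whose promoters are shown because these 3 genes lay farthest from the 0 line relative to their error. They are the 250 bases before and 50 bases after the RefSeq start site (build GRCm38.p6), printed on the gene's strand. Capitals mark every match, on either strand, to the GC box GGGCGG, the CCAAT box, the E-box CACGTG, the ETS site CCGGAAG, the TATA box TATAAA or the p53 half-site consensus.
Brd9, chr13:73937561-73937860, plus strand: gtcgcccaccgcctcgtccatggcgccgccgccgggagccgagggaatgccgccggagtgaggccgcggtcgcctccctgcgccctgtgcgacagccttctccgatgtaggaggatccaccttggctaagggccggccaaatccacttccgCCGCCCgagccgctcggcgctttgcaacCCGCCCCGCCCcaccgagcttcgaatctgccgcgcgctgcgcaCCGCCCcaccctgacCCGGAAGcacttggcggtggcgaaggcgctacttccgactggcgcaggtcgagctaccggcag
Chd6, chr2:161109037-161109336, minus strand: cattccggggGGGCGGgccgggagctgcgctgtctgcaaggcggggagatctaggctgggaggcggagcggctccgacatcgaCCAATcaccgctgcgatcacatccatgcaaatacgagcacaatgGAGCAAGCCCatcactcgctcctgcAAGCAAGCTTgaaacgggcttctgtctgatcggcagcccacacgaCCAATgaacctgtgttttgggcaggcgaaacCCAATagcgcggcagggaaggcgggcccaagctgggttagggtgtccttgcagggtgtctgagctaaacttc
Smarcb1, chr10:75921565-75921864, minus strand: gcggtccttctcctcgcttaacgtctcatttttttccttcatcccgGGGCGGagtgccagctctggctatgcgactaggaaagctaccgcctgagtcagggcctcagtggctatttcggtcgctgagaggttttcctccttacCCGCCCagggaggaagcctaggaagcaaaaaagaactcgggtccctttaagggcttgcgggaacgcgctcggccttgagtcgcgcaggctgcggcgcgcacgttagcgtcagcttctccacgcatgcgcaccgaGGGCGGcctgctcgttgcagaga

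The Brd9 window held 4 GC boxes, 2 of them sharing a base, and 1 ETS site. The Smarcb1 window held 3 GC boxes and no other match. The Chd6 window held 1 GC box, 3 CCAAT boxes and 2 matches to the p53 half-site consensus. For 36 tested members, a RefSeq start lay within 500 bases of the gene's 5 prime end in the count table. Of these 36, 86.1% had a GC box, against 64.1% of the 9718 tested genes placed in the same way and 35.6% of all 32817 windows in the RefSeq table. The CCAAT box was in 25%, 38.6% and 37.4% of these sets, the E-box in 5.56%, 10.3% and 7.15%, and the ETS site in 16.7%, 18.5% and 8.86%. The TATA box was in 5.56%, 7.17% and 13.6%, and the p53 half-site consensus in 5.56%, 6.72% and 8.36%. The members' windows were also richer in G and C, with a median of 66.8% against 60.7% in the tested genes and 52.7% in the whole table, and their observed-to-expected ratio of CpG pairs had medians of 0.888, 0.763 and 0.383 in the same order. These are counts of letters in a window, not bound sites.

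Brd9, the bromodomain subunit that defines the non-canonical BAF complex (mm10 chromosome 13, 73937811 to 73960889, 16 exon blocks), was at 44.9 and 47.4 CPM (counts scaled to a common library size, with TMM factors) in the p53R248W/+ libraries and at 19.3 and 29.7 CPM in the WT libraries. Both p53R248W/+ libraries lay above both WT libraries, and the WT libraries differed from each other more than the p53R248W/+ libraries did. Its log2 fold change, p53R248W/+ over WT, was 0.91 ± 0.39 (SE, n = 2 per genotype; unadjusted p = 0.0326, adjusted p = 0.824) and its 95% interval ran from 0.08 to 1.74. Without WT replicate 1 it was 0.63, and without WT replicate 2 it was 1.26. Of the fits without 1 library, Brd9 was under an unadjusted p of 0.05 in that without WT replicate 2 and in no other.

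Brd7, the bromodomain subunit of PBAF, was at 49.0 and 65.2 CPM in p53R248W/+ and at 67.4 and 87.0 CPM in WT. It lay on the other side, lower in both p53R248W/+ libraries, with a log2 fold change of -0.45 ± 0.30 (SE; adjusted p = 0.849, edgeR quasi-likelihood test). Taken per length, as RPKM (CPM per kilobase of exon), Brd9 made up 47.2% and 41.5% of the sum of Brd9 and Brd7 in p53R248W/+ and 21.9% and 25.01% in WT. The mean share was 44.4% ± 4.04 in p53R248W/+ and 23.4% ± 2.22 in WT (SD, n = 2 each), a difference of 20.9 percentage points. This pair was set side by side after its values had been seen. With Brd9 higher and Brd7 lower in both p53R248W/+ libraries, the share had to separate too, so it adds no support. The exact permutation test, two-sided, gave p = 0.333, the smallest that 2 against 2 libraries allow.

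Smarcb1, a core subunit of BAF and PBAF that the non-canonical complex lacks and a known tumour suppressor (chromosome 10, minus strand), was at 32.9 and 34.9 CPM in p53R248W/+ and at 63.8 and 48.6 CPM in WT. The p53R248W/+ libraries were close to each other and below both WT libraries. The log2 fold change was -0.73 ± 0.35 (SE; unadjusted p = 0.0513, adjusted p = 0.824, edgeR quasi-likelihood test). Its 95% interval ran from -1.47 to 0.0046. Leaving out single libraries gave values from -0.91 to -0.52. In DESeq2 the unadjusted p was 0.0339.

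**Figure D1:**
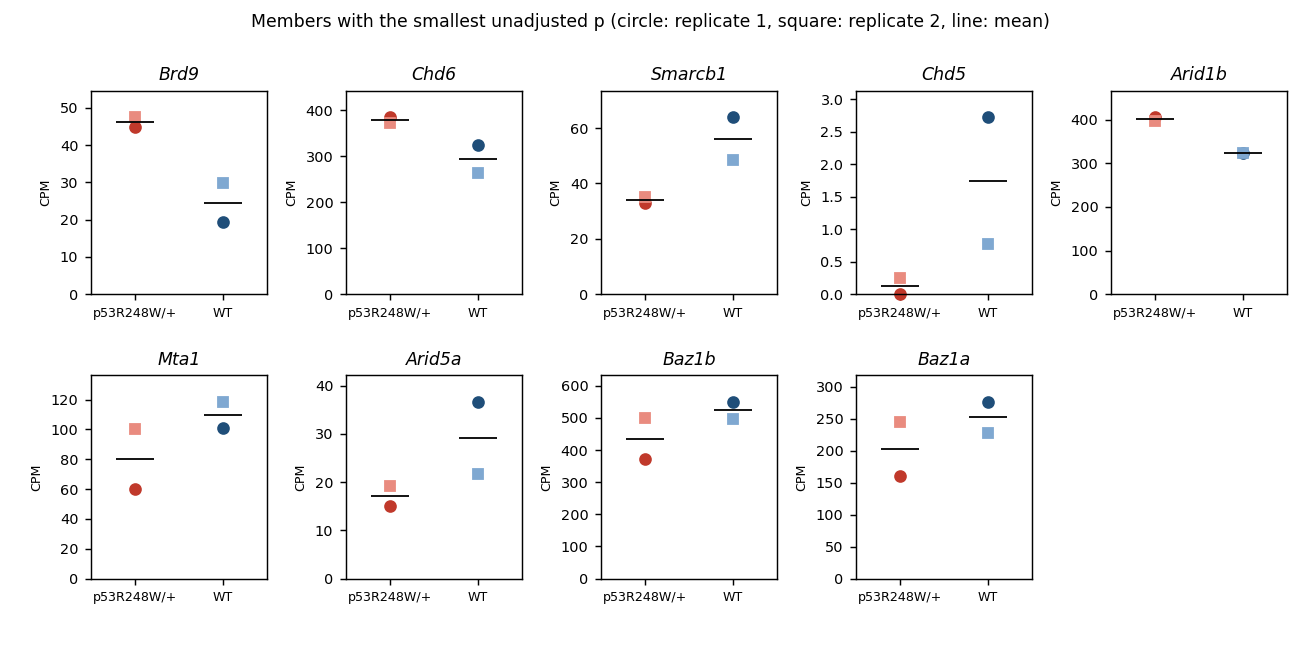
CPM in each library for 9 members with small unadjusted p, with p53R248W/+ at the left and WT at the right of each panel, circles for replicate 1, squares for replicate 2 and lines for the mean of each genotype. The axes start at 0, and the 2 p53R248W/+ libraries of Brd9, at 44.9 and 47.4 CPM, lie above the WT libraries at 19.3 and 29.7 CPM.

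The ATPases of SWI/SNF, Smarca4 (BRG1) and Smarca2 (BRM), did not separate by genotype. Smarca4 was at 293 and 275 CPM in p53R248W/+ and at 299 and 264 CPM in WT, with a log2 fold change of 0.02 ± 0.17 (SE) and a 95% interval from -0.35 to 0.38. Smarca2 was at 560 and 479 CPM in p53R248W/+ and at 548 and 429 CPM in WT (0.09 ± 0.16, SE; interval -0.25 to 0.43). In each genotype, replicate 1 was the higher library for both genes. Per length Smarca2 was the more abundant of the pair, and Smarca4 made up 33.3% and 35.4% of their summed RPKM in p53R248W/+ and 34.2% and 37.0% in WT. The adjusted p was 0.996 for Smarca4 and 0.959 for Smarca2 in the edgeR quasi-likelihood test.

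Among the subunits that target SWI/SNF, Arid1b, which takes the place of Arid1a in part of the canonical BAF complexes (chromosome 17), was at 405 and 397 CPM in p53R248W/+ and at 324 and 323 CPM in WT. The libraries of each genotype were close to each other and the groups did not overlap. The log2 fold change was 0.31 ± 0.16 (SE; unadjusted p = 0.0682, adjusted p = 0.824, edgeR quasi-likelihood test). Its 95% interval ran from -0.03 to 0.64. With a trend on exon length removed, the log2 fold change of Arid1b was 0.18, and the unadjusted p was 0.300 in the same test. Arid1a, the more abundant paralog, was at 619.8 and 676 CPM in p53R248W/+ and at 627 and 534 CPM in WT (0.16 ± 0.15, SE). The PBAF subunit Arid2 was at 388 and 441 CPM in p53R248W/+ and at 403 and 340 CPM in WT (0.16 ± 0.16, SE). Pbrm1, the polybromo subunit of PBAF, was at 363 and 395 CPM in p53R248W/+ and at 330 and 407 CPM in WT (0.04 ± 0.17, SE). The groups overlapped for these 3 genes, and the share of Arid1a in the summed RPKM of Arid1a and Arid1b was 67.9% and 70.2% in p53R248W/+ and 72.8% and 69.6% in WT.

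The other SWI/SNF core genes overlapped between genotypes. Smarcc1, a scaffold subunit and the second most abundant member per length, was at 522 and 519 CPM in p53R248W/+ and at 480 and 524 CPM in WT, and its paralog Smarcc2 at 249 and 340.3 CPM in p53R248W/+ and at 268 and 239 CPM in WT. Smarce1, a DNA-binding subunit, was at 81.1 and 113 CPM in p53R248W/+ and at 104 CPM in both WT libraries. Of the Smarcd paralogs, which link the complex to transcription factors, Smarcd1 was at 61.8 and 58.4 CPM in p53R248W/+ and at 57.0 and 65.9 CPM in WT. Smarcd2 was at 26.8 and 47.7 CPM in p53R248W/+ and at 34.2 and 41.6 CPM in WT. Smarcd3 was at 1.75 and 2.48 CPM in p53R248W/+ and at 0.139 and 1.89 CPM in WT, where WT replicate 1 had 2 counts, under the floor of 3 counts. Of the 15 SWI/SNF members, 10 had a positive and 5 a negative log2 fold change; the median was 0.05.

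**Figure D2:**
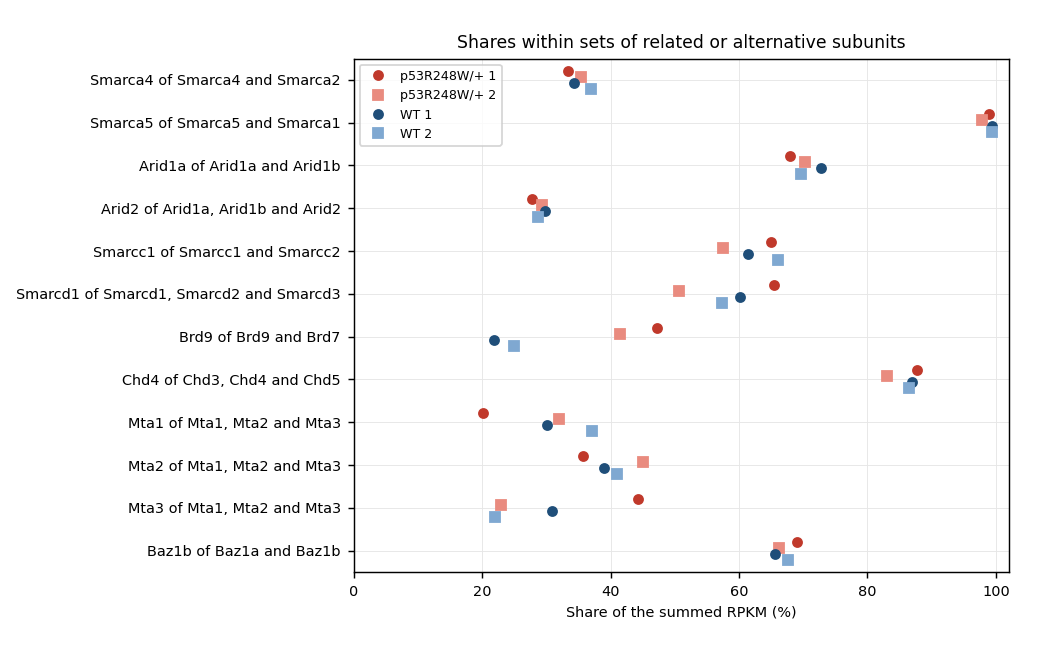
Share of each gene in the summed RPKM of a set of related or alternative subunits, in percent, for the 2 p53R248W/+ libraries (red) and the 2 WT libraries (blue). Brd9 of Brd9 and Brd7, at 47.2% and 41.5% in p53R248W/+ and 21.9% and 25.01% in WT, was farthest apart between genotypes. That pair was chosen after its values had been seen. The groups overlapped in 10 of the 12 sets.

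ISWI genes were near the 0 line apart from the scarce paralog Smarca1. Smarca5 (SNF2H), the main ISWI ATPase of blood progenitors, was at 257 and 316 CPM in p53R248W/+ and at 319.7 and 309 CPM in WT, with a log2 fold change of -0.14 ± 0.17 (SE). Smarca1 was at 2.36 and 6.03 CPM in p53R248W/+ and at 1.74 and 1.82 CPM in WT, and Smarca5 made up 98.96% and 97.9% of their summed RPKM in p53R248W/+ and 99.4% and 99.3% in WT.

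Bptf, the histone-reading subunit of the NURF complex, was at 645 and 725 CPM in p53R248W/+ and at 741 and 653 CPM in WT (-0.03 ± 0.14, SE). Baz1a, the partner of Smarca5 in the ACF and CHRAC complexes, was at 160.3 and 244 CPM in p53R248W/+ and at 276 and 228 CPM in WT (-0.33 ± 0.21, SE). Baz1b, the partner in the WICH complex, was at 371 and 500.3 CPM in p53R248W/+ and at 549.9 and 497 CPM in WT (-0.27 ± 0.17, SE). For both Baz1 genes p53R248W/+ replicate 1 was the low library and p53R248W/+ replicate 2 lay within the WT range. Without p53R248W/+ replicate 1 the log2 fold changes were -0.05 for Baz1a and -0.07 for Baz1b, and without p53R248W/+ replicate 2 they were -0.66 and -0.50. Baz2a, the large subunit of the nucleolar remodelling complex NoRC, was at 164 and 267 CPM in p53R248W/+ and at 220.3 and 214 CPM in WT. Its paralog Baz2b was at 314 and 359 CPM in p53R248W/+ and at 327 and 315 CPM in WT, and both overlapped between genotypes. Of the 7 ISWI members, 2 had a positive and 5 a negative log2 fold change (median -0.03), and the adjusted p was 0.835 to 0.995 in the edgeR quasi-likelihood test.

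Among CHD remodellers, Chd6 (chromosome 2, 160946978 to 161109086, 37 exon blocks) was at 384 and 372 CPM in p53R248W/+ and at 325 and 264 CPM in WT. Both p53R248W/+ libraries were above both WT libraries. The log2 fold change was 0.36 ± 0.17 (SE; unadjusted p = 0.0487, adjusted p = 0.824, edgeR quasi-likelihood test). Its 95% interval ran from 0.0024 to 0.72. It was 0.23 without WT replicate 2 and 0.52 without WT replicate 1, and 0.23 with a trend on exon length removed, where the unadjusted p was 0.226.

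Chd4, the ATPase of NuRD and the most abundant member per length, was at 553 and 653 CPM in p53R248W/+ and at 628 and 578 CPM in WT. Its log2 fold change was -0.0019 ± 0.15 (SE; 95% interval -0.31 to 0.31), and the groups overlapped. Chd3, which can replace it in NuRD, was at 87.6 and 151 CPM in p53R248W/+ and at 104 and 102.3 CPM in WT. Chd5, a NuRD remodeller best known in neurons, had 0 and 3 counts in p53R248W/+ and 39 and 11 counts in WT. The ratio of summed counts, scaled to library size, was 0.0637 (95% exact interval 0.0127 to 0.197, which covers counting error only), and with the edgeR quasi-likelihood test the unadjusted p was 0.0665 and the adjusted p 0.824. WT replicate 1 held 39 of the 50 WT counts. Chd5 passed the filter on low counts only through the WT libraries, where it was higher. Neither its ratio nor its p is therefore read as a difference between genotypes.

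The MTA genes encode scaffold subunits of NuRD. Mta1 was at 59.9 and 100.2 CPM in p53R248W/+ and at 100.9 and 118 CPM in WT, so that p53R248W/+ replicate 2 and WT replicate 1 were almost level. Its log2 fold change was -0.47 ± 0.28 (SE; adjusted p = 0.835, edgeR quasi-likelihood test), -0.13 without p53R248W/+ replicate 1 and -0.87 without p53R248W/+ replicate 2. Mta2 was at 118 and 157 CPM in p53R248W/+ and at 145 and 146 CPM in WT. Mta3 was at 145 and 79.5 CPM in p53R248W/+ and at 114 and 77.4 CPM in WT. The share of Mta3 in the summed RPKM of the 3 genes was 44.2% and 23.0% in p53R248W/+ and 30.9% and 21.95% in WT, a wider spread between replicates than between genotypes.

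Of the CHD genes outside NuRD, Chd7, a remodeller of enhancers, was at 60.7 and 48.2 CPM in p53R248W/+ and at 40.0 and 42.1 CPM in WT. Chd8, which is known to restrain p53 and beta-catenin targets, was at 309 and 315 CPM in p53R248W/+ and at 249 and 296 CPM in WT. Both were higher in each p53R248W/+ library than in either WT library, and neither reached an unadjusted p of 0.05. Chd1, which acts with elongating polymerase, was at 369 and 374 CPM in p53R248W/+ and at 435 and 393 CPM in WT. It was lower in each p53R248W/+ library than in either WT library. Chd2 was at 351 and 324 CPM in p53R248W/+ and at 256 and 348 CPM in WT; it shares 634 exon bases with 1810026B05Rik on the same strand, so its count is uncertain. Chd9 was at 631 and 634 CPM in p53R248W/+ and at 498 and 645 CPM in WT. Of the 12 CHD and NuRD members, 7 had a positive and 5 a negative log2 fold change, and the median was 0.15. Without overlap, 3 were higher and 3 lower in p53R248W/+, or 25% each, beside 16.9% and 16.6% of all tested genes. Chd5 is among the 5 and among the 3 lower. With 12 genes, no difference is read from these shares.

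Ino80, the ATPase of its complex, was at 129 and 138 CPM in p53R248W/+ and at 125 and 121 CPM in WT, a log2 fold change of 0.12 ± 0.22 (SE; 95% interval -0.34 to 0.59). The regulatory subunit Ino80d was at 577 and 649.9 CPM in p53R248W/+ and at 711 and 606 CPM in WT. Ino80c was at 40.3 and 43.0 CPM in p53R248W/+ and at 31.2 and 28.2 CPM in WT. Ino80b was at 1.75 and 2.73 CPM in p53R248W/+ and at 4.81 and 4.21 CPM in WT. The groups did not overlap for Ino80, Ino80c and Ino80b, or 60% of the 5 INO80 members, beside 33.6% of all tested genes. With 5 genes, no difference is read from these shares. The adjusted p of the 5 INO80 members was 0.879 to 0.985 in the edgeR quasi-likelihood test. Ino80e was at 3.16 to 7.74 CPM, and 25.02% of its exon length is shared with Doc2a on the opposite strand. Ino80dos, at 9.99 to 20.03 CPM, shares 13.8% of its exon length with Ndufs1 on the opposite strand, and without knowledge of strand, reads in the shared bases cannot be told apart. Brd8 likewise shares 229 exon bases with Kif20a on the opposite strand.

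Smarcal1, an annealing helicase of stalled replication forks, was at 71.2 and 78.1 CPM in p53R248W/+ and at 67.9 and 60.7 CPM in WT. Smarcad1, which acts in heterochromatin upkeep and end resection, was at 146 and 127 CPM in p53R248W/+ and at 159 and 134 CPM in WT. The first did not overlap between genotypes and the second did, and their adjusted p was 0.937 and 0.966 in the edgeR quasi-likelihood test.

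Of the other bromodomain genes, the BET protein Brd2 was at 352 and 379 CPM in p53R248W/+ and at 338 and 355 CPM in WT, and Brd3 at 129.8 and 141 CPM in p53R248W/+ and at 126 and 122 CPM in WT. Brd1 was at 154 and 209 CPM in p53R248W/+ and at 195 and 173 CPM in WT, and Brd8, a subunit of the TIP60 complex, at 175 and 138 CPM in p53R248W/+ and at 186 and 160.5 CPM in WT. All 4 had a log2 fold change within 0.5 of 0, and the groups overlapped for all but Brd3.

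Of the ARID factors outside the remodellers, Arid5a, an RNA-binding stabiliser of inflammatory transcripts, was at 15.0 and 19.1 CPM in p53R248W/+ and at 36.6 and 21.7 CPM in WT. Its log2 fold change was -0.79 ± 0.48 (SE; adjusted p = 0.835, edgeR quasi-likelihood test), and -0.36 without WT replicate 1, the high library. Immediate early genes, the list of fast stress and handling responders, were lower too: 21 of 21 had a negative log2 fold change, and their summed level was 4383 and 5072 CPM in p53R248W/+ and 9240 and 5657 CPM in WT, with the same high library. The part of that pattern in the Arid5a value was not tested. Arid5b, a partner of the demethylase Phf2, was at 51.6 and 42.9 CPM in p53R248W/+ and at 28.0 and 39.9 CPM in WT. Arid3a was at 21.7 and 23.2 CPM in p53R248W/+ and at 24.5 and 23.4 CPM in WT, and Arid3b at 24.3 and 17.5 CPM in p53R248W/+ and at 18.1 and 10.7 CPM in WT. Arid4a was at 219.7 and 319.6 CPM in p53R248W/+ and at 244 and 223 CPM in WT, and Arid4b at 163 and 190.0 CPM in p53R248W/+ and at 186 and 142 CPM in WT. Of these 6 tested genes, 4 had a positive log2 fold change.

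**Figure D3:**
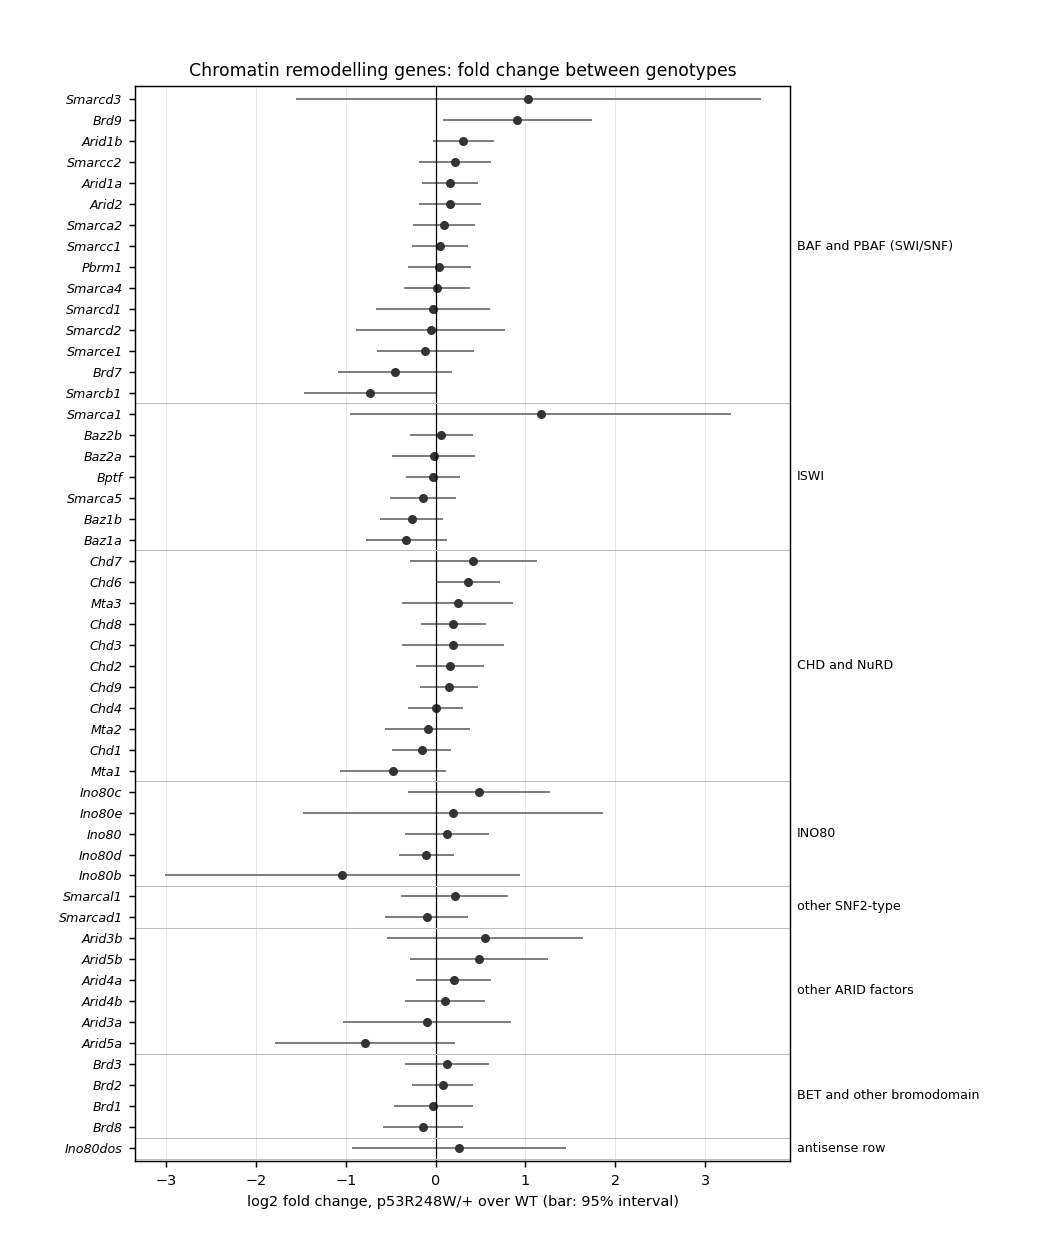
Log2 fold change of p53R248W/+ over WT for 51 tested members, grouped by family, with bars for the 95% interval of edgeR's quasi-likelihood test. Chd5 is not drawn, since its p53R248W/+ libraries had 0 and 3 counts. The intervals of Brd9, from 0.08 to 1.74, and Chd6, from 0.0024 to 0.72, lie above 0, and all others drawn cross it.

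Per length, the members spanned a wide range in these cells. Chd4 was at 86.02 and 101.6 RPKM in p53R248W/+ and at 97.8 and 89.9 RPKM in WT, Smarcc1 at 91.9 and 91.4 RPKM in p53R248W/+ and at 84.7 and 92.4 RPKM in WT, and Smarca2 at 92.1 and 78.8 RPKM in p53R248W/+ and at 90.0 and 70.4 RPKM in WT. These 3 were the highest by their mean over 4 libraries, and they overlapped with one another in single libraries. The lowest tested members were Smarcd3, with a mean of 0.908 RPKM, Smarca1, with 0.737, and Chd5, with 0.0985. The median of the tested members was 34.04 RPKM, against 10.02 RPKM over all tested genes. All values in RPKM are levels per length. In bulk RNA, fewer cells of a type and less RNA per cell cannot be told apart.

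**Figure D4:**
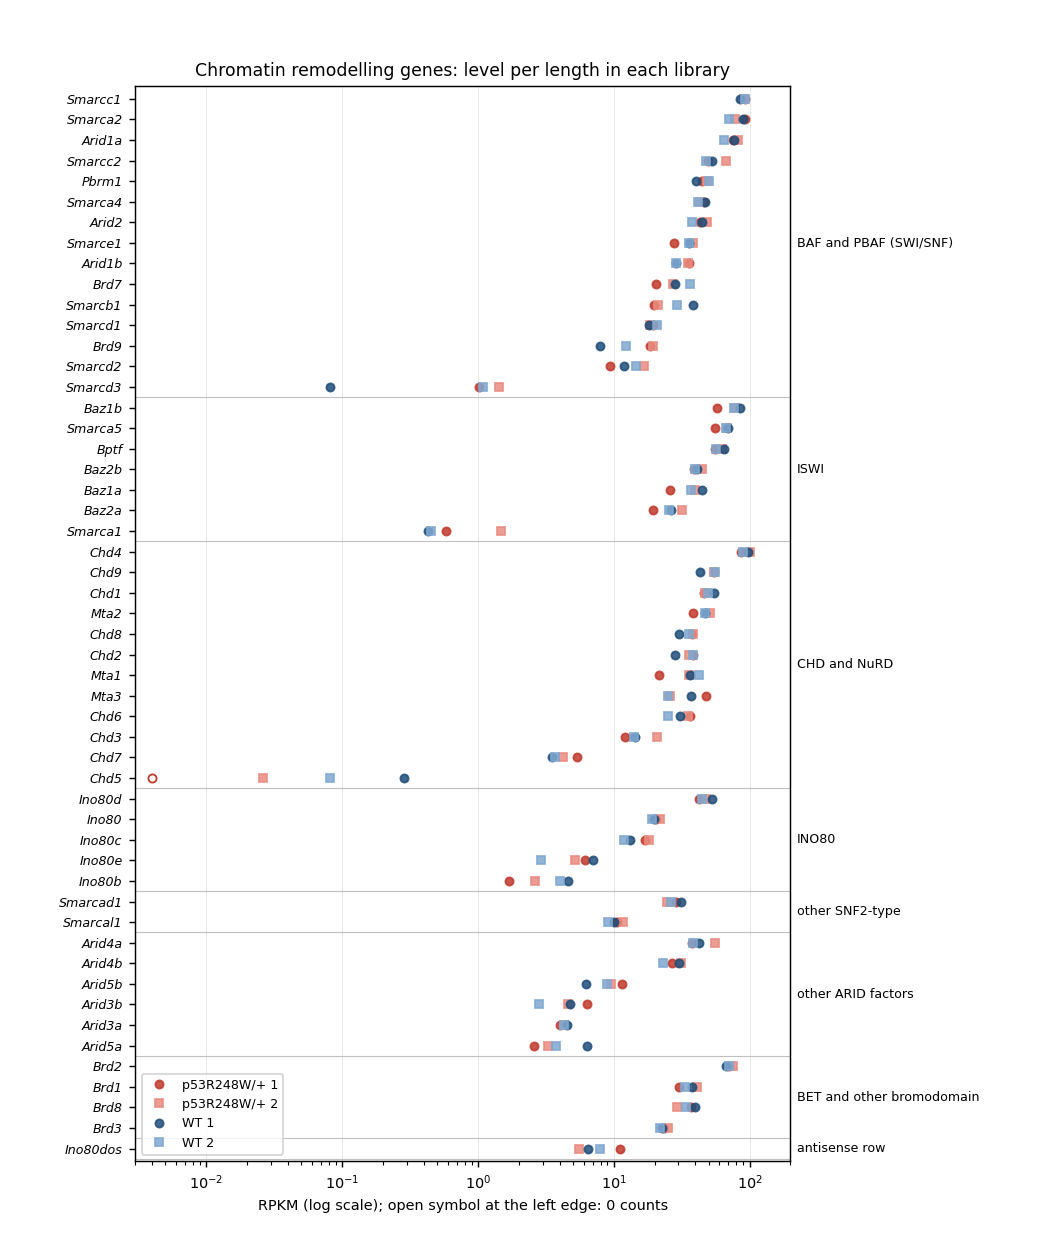
Level per exon length (RPKM, log scale) of 52 tested members in each library, grouped by family and ordered by mean level, with red symbols for p53R248W/+ and blue symbols for WT. The open symbol at the left edge stands for the 0 counts of Chd5 in p53R248W/+ replicate 1. Chd4, Smarcc1 and Smarca2 lead, and Smarcd3, Smarca1 and Chd5 lie below 1 RPKM on average.

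As a set the members were balanced between the genotypes. Of 53, 30 had a positive and 23 a negative log2 fold change and their median was 0.06, beside 6647 positive, 6649 negative and a median near 0 over all tested genes. For 20 members, p53R248W/+ and WT libraries did not overlap. Of these, 11 were higher in p53R248W/+, or 20.8% of the members, where 16.9% of all tested genes were, and 9 were lower, or 17.0%, where 16.6% of all tested genes were. Chd5, which passed the filter only through the WT libraries, is among the 9 lower and the 23 negative members. The sign was kept in each of the 4 fits that leave out a library for 26 members, 16 higher and 10 lower. No share over all tested genes was set beside this count, so nothing is read from it. Between replicates the median absolute log2 difference of the members was 0.22 in p53R248W/+ and 0.21 in WT, and between a p53R248W/+ and a WT library it was 0.19 to 0.31, so the genotypes differed by about as much as the replicates. The members' summed level was 11364 and 12478 CPM in p53R248W/+ and 11971 and 11377 CPM in WT.

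The members had small fold changes and long transcripts. In 84.9% of them the log2 fold change was within 0.5 of 0, against 65.8% of all tested genes, beside a median level of 165 CPM in the members and 25.7 CPM in all tested genes, and a median SE of 0.22 and 0.46. Between pairs of libraries, the 4406 tested genes within the middle range of the members' levels (their quartiles) had median absolute log2 differences of 0.20 to 0.29, where the members had 0.19 to 0.31. The median exon length was 5780 bases in the members and 2883.5 bases in all tested genes, and 38 of the 53 members were in the 3 longest deciles of the tested genes.

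Fold change moved slightly with length over all tested genes (Spearman rho 0.076) and hardly among the members (rho 0.024). The median log2 fold change was -0.05 in the shortest decile and 0.07 in the longest decile, which held 20 members with a median of 0.10. With a smooth trend on exon length removed in each library, the median of the members was -0.02 beside -0.04 for all tested genes, 27 members had a negative sign, and Brd9 alone stayed under an unadjusted p of 0.05. Without p53R248W/+ replicate 2, the library with the highest summed level of the members, their median was -0.0071. The part of length in single members was not tested beyond that fit.

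**Figure D5:**
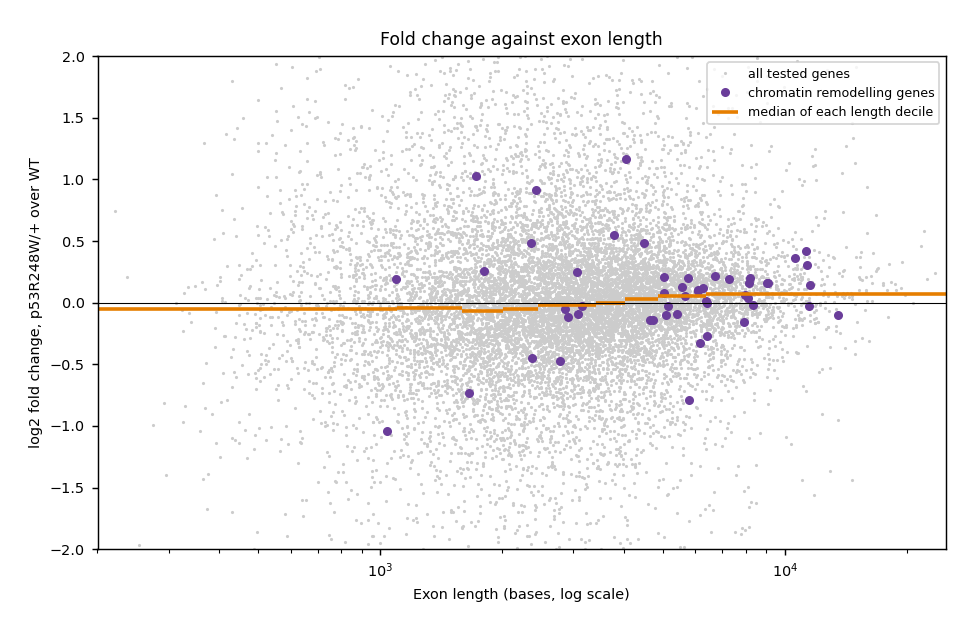
Log2 fold change of p53R248W/+ over WT against exon length (log scale) for tested genes (grey), with 51 remodelling genes in purple, Chd5 left out, and the median of each decile of length in orange. Genes beyond the axis limits are not drawn. The orange medians run from -0.05 in the shortest decile to 0.07 in the longest.

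A fixed list of 63 other remodelling genes held 15 subunits of SWI/SNF, 9 of NuRD, 5 of ISWI, 9 of INO80 and 16 of the SRCAP and TIP60 complexes, with 9 other SNF2-type ATPases. Of the 60 tested, 31 had a positive and 29 a negative log2 fold change (median 0.04), and 0 were called. Without overlap, 14 were higher in p53R248W/+, or 23.3%, beside 16.9% of all tested genes, and 10 were lower, or 16.7%, beside 16.6%. Hltf, a SNF2-type translocase of replication fork reversal, was the single gene at an unadjusted p under 0.05, at 87.7 and 113 CPM in p53R248W/+ and at 164 and 126 CPM in WT. Its log2 fold change was -0.54 ± 0.24 (SE; unadjusted p = 0.0409, adjusted p = 0.824, edgeR quasi-likelihood test). Leaving out WT replicate 1 gave -0.33 and leaving out p53R248W/+ replicate 1 gave -0.36. The unadjusted p was 0.066 with a replicate block in edgeR.

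Of the 12 tested SWI/SNF subunits on that list, 7 had a positive and 5 a negative log2 fold change, and the groups overlapped for 7. Both p53R248W/+ libraries were higher for Gltscr1l and Bcl7b, or 16.7% of the 12 genes, where 16.9% of all tested genes were. Both were lower for Actl6a, Phf10 and Ss18l1, or 25%, where 16.6% of all tested genes were. With 12 genes, no difference is read from these shares. Gltscr1l, a subunit of the non-canonical complex, was at 125 and 127 CPM in p53R248W/+ and at 104 and 112 CPM in WT. Its paralog Gltscr1 overlapped, at 67.9 and 74.3 CPM in p53R248W/+ and at 48.5 and 72.9 CPM in WT. Phf10, a PBAF subunit, was at 36.8 and 39.6 CPM in p53R248W/+ and at 46.2 and 59.3 CPM in WT. The adjusted p was 0.909 for Gltscr1l and 0.872 for Phf10 in the edgeR quasi-likelihood test. The PBAF subunits Arid2 and Pbrm1, with log2 fold changes of 0.16 and 0.04, lay on the other side of 0 from Phf10. Actl6a, an actin-like subunit that SWI/SNF shares with INO80 and TIP60, was at 44.4 and 46.2 CPM in p53R248W/+ and at 58.7 and 68.7 CPM in WT. The subunit Ss18 was at 99.3 and 162 CPM in p53R248W/+ and at 163 and 144 CPM in WT, and the groups overlapped.

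Depth and cell type were checked for the whole series. Total counts were 14820759 and 12111126 in p53R248W/+ and 14544290 and 14109906 in WT, and the 3-count floor was 0.202 to 0.248 CPM. Trp53 was at 245 and 332 CPM in p53R248W/+ and at 362 and 302 CPM in WT; gene counts do not tell its alleles apart. The sorting gene Kit was at 1182 and 1105 CPM in p53R248W/+ and at 911 and 998 CPM in WT, and the 12 LSK genes summed to 4846 and 4473 CPM in p53R248W/+ and to 3814 and 4098 CPM in WT. Of these 12, 8 had a positive log2 fold change, with a median of 0.23. Of the other lists, summed levels were 70.1 to 124 CPM in p53R248W/+ and 56.6 to 67.02 CPM in WT for 11 B cell genes (Pax5 at 0), and 149 to 186 CPM in p53R248W/+ and 92.4 to 111 CPM in WT for 10 stroma and endothelium genes (Cxcl12, Lum and Dcn at 0). They were 858 to 1047 CPM in p53R248W/+ and 628 to 1763 CPM in WT for 12 granulocyte and monocyte genes, and 109 to 223 CPM in p53R248W/+ and 117 to 170 CPM in WT for 10 erythroid genes, with the 4 globin genes at 0. Mitosis genes summed to 1696 and 3288 CPM in p53R248W/+ and to 2168 and 3480 CPM in WT, with replicate 1 the low library in both. Megakaryocyte genes summed to 644 to 911 CPM in p53R248W/+ and 903 to 937 CPM in WT, and T and NK cell genes to 83.3 to 95.2 CPM in p53R248W/+ and 77.6 to 90.3 CPM in WT. Mast cell, basophil and eosinophil genes summed to 375 to 397 CPM in p53R248W/+ and 379 to 412 CPM in WT. Of the tested genes, 5 of 5 B cell and 4 of 4 stroma and endothelium genes had a positive log2 fold change (medians 1.43 and 0.73). So did 4 of 20 mitosis and 1 of 7 megakaryocyte genes (medians -0.26 and -0.09). The counts were 4 of 6 for T and NK cell, 6 of 8 for mast cell, basophil and eosinophil, 5 of 11 for granulocyte and monocyte, and 2 of 3 for erythroid genes. The part of these lists in the values of single members was not tested.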

How the data were processed

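The authors deposited raw, unnormalised read counts per gene symbol for 4 libraries, with exon coordinates. The tools named in the submitters' processing notes are STAR 2.7.10a, Subread 2.0.3 (featureCounts), edgeR 3.40.2 and FastQC 0.11.5, with build mm10; strand and multi-mapping settings are not given in the sources used here. From these counts, genes were filtered with filterByExpr (minimum count 10, minimum total 15), scaled by TMM and tested across all 13296 genes with edgeR 4.0.16 (glmQLFit, legacy=FALSE, robust=TRUE; genotype only) in R 4.3.3, with Benjamini-Hochberg adjustment and a threshold of 0.05. The SE was derived from the F statistic. limma 3.58.1, DESeq2 1.42.0 and mgcv 1.9.3 served alternatives. The test was tried on simulated counts. Members, lists and paralog sets were chosen with earlier results of these data known. Fold changes are given for 11 fixed catalytic and defining subunits, members at an unadjusted p under 0.05, the 10 smallest p, and Brd7 (chosen after its values were seen), and Hltf from the other remodelling genes by the same p. Bicra and Bicral were matched as Gltscr1 and Gltscr1l. Promoters came from RefSeq (GRCm38.p6, same coordinates as mm10); 17 tested members had none used here. Nothing in the labels says that same-numbered libraries shared a litter or day, so the numbers were not treated as pairs. Such libraries deviated together at r = 0.0049 over all tested genes. A single correlation over all genes cannot decide whether the numbers mark pairs. The values of 1 member, which is in the counts over members, are not reported here.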

Additional observations from a re-analysis of the deposited data

How the results depend on the processing

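No member was called under any alternative run. Over all genes DESeq2 called 7, and fits without 1 library called 0 to 1. The count of members at an unadjusted p under 0.05 was 1 with the trend on exon length removed, with or without the replicate block, and 0 to 3 without single libraries (0 without p53R248W/+ replicate 1, where 2.39% of all genes reached it, and 3 without p53R248W/+ replicate 2, where 6.38% did). The median of the members was -0.0226 with the length trend removed and -0.0225 with the replicate block added to that fit, and the median of the other remodelling genes was -0.0335 to 0.136 without single libraries. With the replicate number as a block alone, 0 genes were called and the median of the members was 0.0628.

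Of 21 named genes, 6 changed sign in some setting. Chd4 was at 0.0014 with total-count scaling, 0.0030 with the stricter filter and -0.13 to 0.11 without single libraries. With the length trend removed, Smarca4 was at -0.0698 and Pbrm1 at -0.0577, and -0.0677 and -0.0541 with the replicate block added. Without single libraries the ranges were -0.0640 to 0.109 for Smarca4, -0.10 to 0.21 for Pbrm1, -0.0676 to 0.280 for Smarca2, -0.29 to 0.0063 for Smarca5 and -0.114 to 0.0702 for Bptf. The cause was not tested. Chd5 has no value under the stricter filter or without WT replicate 1. In DESeq2 the 2 members under 0.05 were Brd9 and Smarcb1. The current quasi-likelihood method was kept over edgeR's legacy one, to follow earlier processing of these data, after the calls of both had been seen. The legacy method called 0 members, and 2 members (Brd9 and Chd6) and 638 genes in all were under an unadjusted p of 0.05, against 780 genes with the current one. The biological coefficient of variation was 46.0% over all tested genes, and the median SE of the log2 fold change was 0.22 in the members. The size of change that 2 libraries per genotype could detect in the members was not tested.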
